A study of Caenorhabditis elegans with 2 samples.

Results

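The 382 regions described here are those whose summit lay closest to the start of a small nuclear RNA (snRNA) or small nucleolar RNA (snoRNA) gene in a chromatin immunoprecipitation sequencing (ChIP-seq) experiment on the nuclear receptor NHR-67 in Caenorhabditis elegans. They were picked from the authors' list of candidate regions called on both replicates together, which held 30000 regions, 30 of them on the mitochondrial genome and left out. Each of the other 29970 was assigned to the gene whose annotated start was closest to the summit, piRNA genes aside. An snRNA gene was nearest for 63 regions, which fell to 49 of the 129 annotated snRNA genes, and a snoRNA gene for 319 regions, which fell to 196 of 346. Of all genes considered, 52.1% were nearest to at least 1 pooled region. The choice used position only and no signal value.

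The animals were whole L3 larvae of both sexes, of strain OP373 with the genotype unc-119(tm4063) III; wgIs373, in which the inserted transgene carries nhr-67 fused to eGFP. The labels name the antibody only as nhr-67 and give 2 biological replicates of this 1 group, with no second genotype, stage or treatment. Cells that express the tagged receptor and cells that do not were pooled in each sample, so a region cannot be ascribed to a cell type. None of the 382 regions lay within 20 kb of nhr-67 or of unc-119, the loci of which the strain carries introduced copies.

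The snRNAs are the RNA parts of the spliceosome, and in nematodes the spliced leader RNAs, among them the SL1 and SL2 RNAs made from the sls-1 and sls-2 genes, donate a short leader to the ends of many messenger RNAs. Most snRNA genes are short transcription units whose promoter carries a proximal sequence element, bound by the complex SNAPc. The snoRNAs guide the chemical modification of ribosomal RNA, by methylation for the box C/D class and by pseudouridylation for the H/ACA class, and many lie in introns of protein-coding genes. NHR-67, a tailless-type nuclear receptor, has been studied in the anchor cell and in neurons.

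The DNA around the start of 5 of the snRNA genes with the strongest regions is shown first, because these bases stood under or next to their regions. The strong region covered the start at W05B2.8, F38E11.10 and sls-2.16, and lay after it at sup-6 and sls-2.1, outside the bases shown. Each window runs from 90 bases before to 15 bases after the annotated start on the sense strand of the gene, 5′ to 3′, from the WBcel235 (ce11) assembly. Capitals mark matches to AACCCG and TGTCNG, and to TGGCNNA and GTTCNANNC, where N is any base. The windows are chrIII:10989589-10989693 on the plus strand for W05B2.8, chrII:12944953-12945057 on the minus strand for sup-6, chrIV:9444552-9444656 on the plus strand for F38E11.10, chrIII:7141301-7141405 on the plus strand for sls-2.16 and chrII:5844775-5844879 on the plus strand for sls-2.1.
W05B2.8: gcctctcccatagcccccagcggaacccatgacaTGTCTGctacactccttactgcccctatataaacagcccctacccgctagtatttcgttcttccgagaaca
sup-6: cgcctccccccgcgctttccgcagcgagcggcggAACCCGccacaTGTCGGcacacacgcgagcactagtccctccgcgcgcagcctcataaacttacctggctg
F38E11.10: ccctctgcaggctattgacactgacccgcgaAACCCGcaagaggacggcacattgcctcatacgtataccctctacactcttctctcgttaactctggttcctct
sls-2.16: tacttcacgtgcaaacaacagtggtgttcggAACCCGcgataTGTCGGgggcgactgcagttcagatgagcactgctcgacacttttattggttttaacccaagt
sls-2.1: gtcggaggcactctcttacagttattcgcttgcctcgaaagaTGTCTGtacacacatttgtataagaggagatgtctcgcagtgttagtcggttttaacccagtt

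The snoRNA genes are shown in the same way, ZK994.7 and Y53F4B.47 for the letters they share with the snRNA genes, and the other 3 for the letters of a tRNA-gene type. Their windows are chrV:8500489-8500593 on the plus strand for ZK994.7, chrII:15025879-15025983 on the minus strand for Y53F4B.47, chrV:11314168-11314272 on the plus strand for T03F7.8, chrII:5105217-5105321 on the minus strand for C04G6.12 and chrII:8107256-8107360 on the minus strand for C41C4.11. TGGCNNA and GTTCNANNC are written from the A and B boxes known from tRNA genes, and AACCCG and GTTCNANNC can overlap, as they do in C04G6.12, where the capitals run together. Capitals also run together in ZK994.7, where a match to TGGCNNA, without GTTCNANNC, overlaps AACCCG.
ZK994.7: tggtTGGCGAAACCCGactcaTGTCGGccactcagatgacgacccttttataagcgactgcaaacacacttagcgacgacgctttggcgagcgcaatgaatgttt
Y53F4B.47: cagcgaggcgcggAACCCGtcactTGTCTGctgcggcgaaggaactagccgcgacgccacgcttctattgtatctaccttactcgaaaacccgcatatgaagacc
T03F7.8: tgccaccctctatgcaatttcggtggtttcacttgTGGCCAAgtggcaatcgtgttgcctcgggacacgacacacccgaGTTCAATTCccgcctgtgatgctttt
C04G6.12: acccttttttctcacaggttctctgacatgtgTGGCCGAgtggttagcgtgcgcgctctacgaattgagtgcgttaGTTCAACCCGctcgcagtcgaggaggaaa
C41C4.11: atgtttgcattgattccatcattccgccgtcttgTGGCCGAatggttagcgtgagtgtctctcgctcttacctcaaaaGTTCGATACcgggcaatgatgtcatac

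Signal values are the authors' enrichment over a control, one value a region, and differ in scale between lists, so ranks and percentiles were taken within a list (rank 1 and the 100th percentile being strongest among nuclear regions). Over the 63 snRNA-nearest regions the median signal lay at the 59.9th percentile, over the 319 snoRNA-nearest regions at the 54.4th, and over the 22985 regions nearest a protein-coding gene at the 49.7th. The median summit lay 342 bp from its snRNA start and 697 bp from its snoRNA start, against 848 bp from the nearest start over all nuclear regions. The summit was within 500 bp of the assigned start in 43 of 63 snRNA-nearest regions (68.3%, exact 95% interval 55.3 to 79.4) and in 136 of 319 snoRNA-nearest regions (42.6%, 37.1 to 48.3), where all nuclear regions gave 35.0%. Exact (Clopper-Pearson) intervals cover counting error over regions only, and no test was made, since there is 1 group of 2 samples.

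Optimal peaks, the 108 nuclear regions that passed the authors' reproducibility threshold, were overlapped by 0.377% of all nuclear regions. Among snRNA-nearest regions 2 of 63 overlapped an optimal peak (3.17%, 0.387 to 11.0), and both belonged to W05B2.8 and to the same peak. Among snoRNA-nearest regions 5 of 319 did (1.57%, 0.511 to 3.62), each being an optimal peak itself. A wider class, the 1000 strongest nuclear regions, made up 3.34% of the list. It held 8 of the 63 snRNA-nearest regions (12.7%, 5.65 to 23.5) and 26 of the 319 snoRNA-nearest regions (8.15%, 5.39 to 11.7). This class of 1000 was set after the data had been seen.

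The strongest snRNA-nearest region was that of W05B2.8, at chrIII:10989535-10989790 with its summit 16 bp before the start of this snRNA gene. It had a signal of 33.7 in the pooled list (rank 59), of 24.6 in replicate 1 (rank 79) and of 8.49 in replicate 2 (rank 309). It was thus high in every list and was the only optimal peak among the snRNA-nearest regions. W05B2.8 lies in an intron of dhc-4, which encodes a dynein heavy chain, on the same strand, and the summit was 19719 bp from the dhc-4 start. Ensembl gives it the same name, R07E5.16, as 13 other snRNA genes, so W05B2.8 is the RefSeq locus name, and reads from near-identical copies may not have been told apart. W05B2.8 also had the most regions of any snRNA gene, 4, of which the other 3 had pooled signals of 6.57 to 8.21, and the farthest of them, 2325 bp away, was the longest distance of any snRNA-nearest region. The nearest of these overlapped the strong region and so was matched to the same replicate regions.

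The region second in signal was that of sup-6, a gene known from mutations that suppress others, at chrII:12944610-12944865. Its signal was 21.4 in the pooled list (rank 299), 17.0 in replicate 1 (rank 415) and 7.87 in replicate 2 (rank 456), with the summit 229 bp after the start. F38E11.10, at chrIV:9444469-9444724, had 19.4 in the pooled list (rank 463), 18.7 in replicate 1 (rank 270) and 5.56 in replicate 2 (rank 2199), with the summit 45 bp before the start. C52E4.8, at chrV:11979967-11980222, had 18.4 in the pooled list (rank 590), 12.9 in replicate 1 (rank 1559) and 5.06 in replicate 2 (rank 3028), 23 bp before the start. All 3 had a region in each replicate, and only sup-6 was among the 1000 strongest of both. The C52E4.8 region is also within 500 bp of the start of snr-4, which encodes an Sm protein of the spliceosome, so the gene it belongs to is ambiguous.

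Among the spliced leader genes, none of the 12 sls-1 genes, which make the SL1 RNA, was nearest to any pooled region, whereas 9 of the 18 sls-2 genes, which make SL2 RNAs, took 11 regions, 4 of them among the 1000 strongest. The sls-2 count is close to the 52.1% of all genes nearest to a region. The region of sls-2.9 had a pooled signal of 20.3 (rank 379), with 18.7 in replicate 1 (rank 272) and 2.26 in replicate 2 (rank 16754). The region of sls-2.16, an snRNA gene on the opposite strand in an intron of the glutamate receptor gene glr-2, had 18.2 in the pooled list (rank 606), 15.4 in replicate 1 (rank 668) and no region in replicate 2. These 2 were thus strong in replicate 1 and weak or missing in replicate 2. The region of sls-2.1 was the reverse, with 18.1 in the pooled list (rank 627), 12.4 in replicate 1 (rank 1853) and 9.54 in replicate 2 (rank 179), and that of sls-2.3 had 16.8 (rank 868), 11.3 (rank 2741) and 4.97 (rank 3218). The sls-2.1 and sls-2.3 summits were also 423 bp and 456 bp from a protein-coding start, so their gene is ambiguous. How the authors treated reads that map to several places is not given in the sources used here, which bears on repeated genes such as sls-1.

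Further sls-2 genes had a strong region close by that was counted under another gene. The region 129 bp from the sls-2.4 start had rank 16 in the pooled list, rank 27 in replicate 1 and rank 11 in replicate 2, and was assigned to the non-coding RNA gene R12E2.18, whose start was 29 bp away. The region 192 bp from sls-2.2 had ranks 31, 13 and 1210 and was assigned to C17C3.23, and that 144 bp from sls-2.8 had ranks 162, 102 and 210 and was assigned to Y75B8A.49, both non-coding RNA genes. The first 2 of these 3 were optimal peaks. By gene, 10 of the 129 snRNA genes had a region among the 1000 strongest within 250 bp of a start (7.75%, 3.78 to 13.8), where 1.67% of all genes did, and 6 of the 10 were sls-2 genes. Any pooled region lay within 250 bp of a start for 34 snRNA genes (26.4%, 19.0 to 34.8), against 21.5% of all genes.

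Of the other snRNA groups, the 10 smy genes annotated as snRNA took 7 regions at 6 genes, the strongest being that of smy-7 with a pooled signal of 16.3, just outside the 1000 strongest at rank 1006. The 14 genes that share the Ensembl name R07E5.16 took 9 regions at 4 genes, and apart from the W05B2.8 region of rank 59 their signals were 5.84 to 9.75. The 7 genes that share the name C47F8.9 took 4 regions with signals of up to 9.09. The strong W05B2.8 region thus stood far above the other regions of genes that share its Ensembl name. Whether the copies themselves differ cannot be told, since reads from near-identical copies may not have been told apart.

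**Figure D1:**
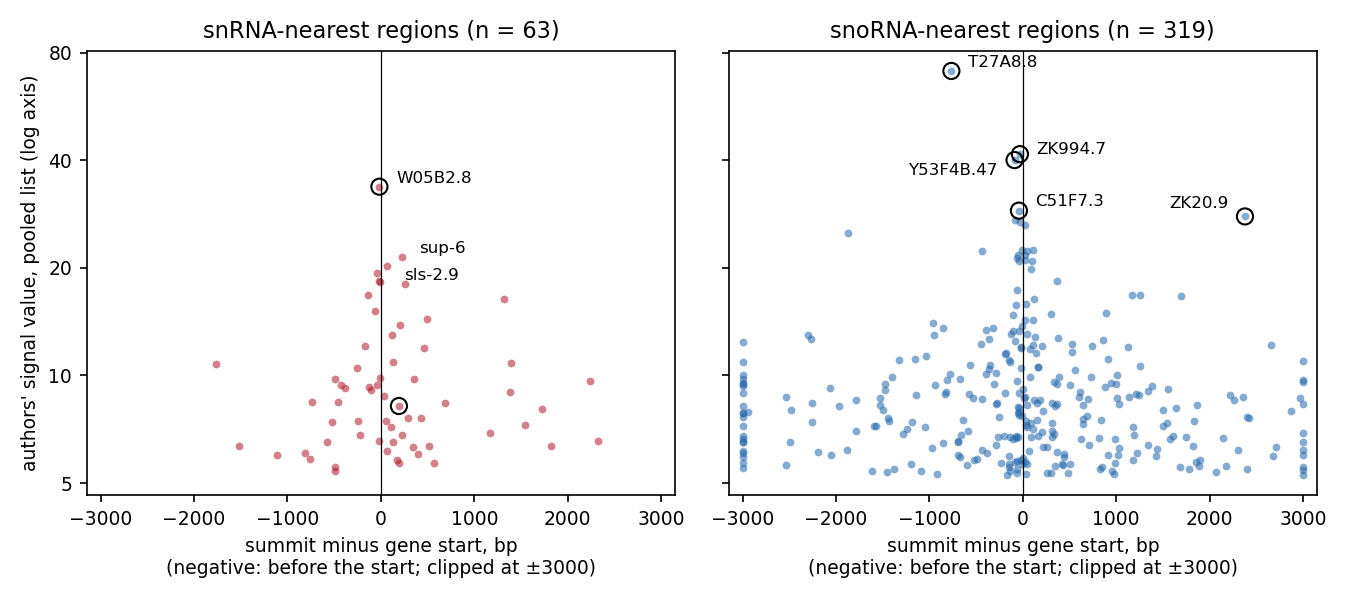
Signal value in the pooled list (log axis) against the signed distance from the gene start to the summit in bp, for the 63 snRNA-nearest and 319 snoRNA-nearest regions. Each point is 1 region, open circles mark overlap with an optimal peak, and points beyond 3000 bp are drawn at the edge. Of the members among the 1000 strongest nuclear regions, 5 of 8 snRNA-nearest and 15 of 26 snoRNA-nearest ones stand within 100 bp of a start. Beyond 500 bp stand 6 of the snoRNA-nearest ones, T27A8.8 and ZK20.9 among them.

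Among the snoRNA-nearest regions the strongest was on chromosome X, nearest to T27A8.8 but 765 bp before its start, outside any annotated host and 1064 bp from the nearest protein-coding start. It had a signal of 71.1 in the pooled list (rank 5), 46.5 in replicate 1 (rank 7) and 28.7 in replicate 2 (rank 3). It was also the 1 member with a width other than 256 bp, and its 99 bases are shown because it ranked among the leading 7 regions of all 3 lists. They are given on the plus strand at chrX:16056571-16056669, with capitals at AAGTCA, a half-site known for tailless-type receptors, and at CCCTGC and CGCGCA on the other strand.
T27A8.8 region: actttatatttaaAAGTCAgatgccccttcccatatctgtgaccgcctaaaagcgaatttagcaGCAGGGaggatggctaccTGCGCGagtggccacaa
AAGTCA stood within 50 bp of the summit in 18 of 319 snoRNA-nearest regions (5.64%) and 2 of 63 snRNA-nearest regions (3.17%), searched on both strands, against 4.36% of all nuclear regions. At T27A8.8 these letters stood at position 14 of the region, counted from its first base.

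The next 3 optimal peaks lay at the snoRNA start itself. ZK994.7, in an intron of the peroxidasin gene pxn-1 on the same strand, had its region at chrV:8500420-8500675, with a signal of 41.6 in the pooled list (rank 26), 32.2 in replicate 1 (rank 31) and 7.12 in replicate 2 (rank 770). Its summit was 31 bp before the snoRNA start and 5659 bp from the pxn-1 start. Y53F4B.47 had its region at chrII:15025854-15026109, with 40.1 in the pooled list (rank 33), 26.8 in replicate 1 (rank 56) and 11.9 in replicate 2 (rank 61). Its summit was 89 bp before the snoRNA start but also 132 bp from a protein-coding start, so the gene it belongs to is ambiguous. C51F7.3, in an intron of frm-7, had its region at chrV:12303538-12303793, with 28.9 in the pooled list (rank 99), 26.8 in replicate 1 (rank 57) and no region in replicate 2. That summit was 42 bp before C51F7.3 and 67 bp from the start of another snoRNA gene, C51F7.4, which shares the region.

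The fifth optimal peak, at chrII:11637475-11637730, was 2378 bp after the start of ZK20.9 and 3994 bp from any protein-coding start. Its signal was 27.9 in the pooled list (rank 108), 17.5 in replicate 1 (rank 363) and 13.6 in replicate 2 (rank 36). This region and that of T27A8.8 were given to a snoRNA gene because no other start was nearer, and nothing else in the lists ties them to one. The optimal list ended at rank 108, and the 3 members next below it lay at snoRNA starts. T03F7.8, on the opposite strand in an intron of cutl-18, had its region at chrV:11314046-11314301, with 27.3 in the pooled list (rank 113), 22.4 in replicate 1 (rank 115) and 5.28 in replicate 2 (rank 2641), and its summit was 84 bp before the start. C16D9.10, at chrV:8247859-8248114, had 26.8 (rank 123), 23.9 (rank 87) and no region in replicate 2, and F59C6.15, at chrI:10517003-10517258, had 26.3 (rank 131), 21.0 (rank 155) and 6.08 (rank 1570). These 3 ranked lower in replicate 2 than in replicate 1, or had no region there.

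By gene, 22 of the 346 snoRNA genes had a region among the 1000 strongest within 250 bp of a start (6.36%, 4.03 to 9.47) and 113 had any pooled region (32.7%, 27.7 to 37.9). For tRNA genes, a further class of short non-coding genes, these shares were 7.52% and 45.4% of 612 genes, and for protein-coding genes 1.51% and 22.2% of 19973. The share of strong regions was highest close to the start. With the summit within 100 bp, 5 of 12 snRNA-nearest regions were among the 1000 strongest (41.7%, 15.2 to 72.3), 15 of 58 snoRNA-nearest regions (25.9%, 15.3 to 39.0), 26 of 163 tRNA-nearest regions (16.0%, 10.7 to 22.5) and 95 of 1906 protein-coding-nearest regions (4.98%, 4.05 to 6.06), where all nuclear regions so close to a start gave 7.05%. The snRNA and snoRNA intervals lay above the protein-coding one, and they overlapped that of the tRNA genes. Beyond 500 bp the shares were 0 of 20 for snRNA genes, which allows up to 16.8%, 6 of 183 for snoRNA genes (3.28%) and 2.51% over all nuclear regions.

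**Figure D2:**
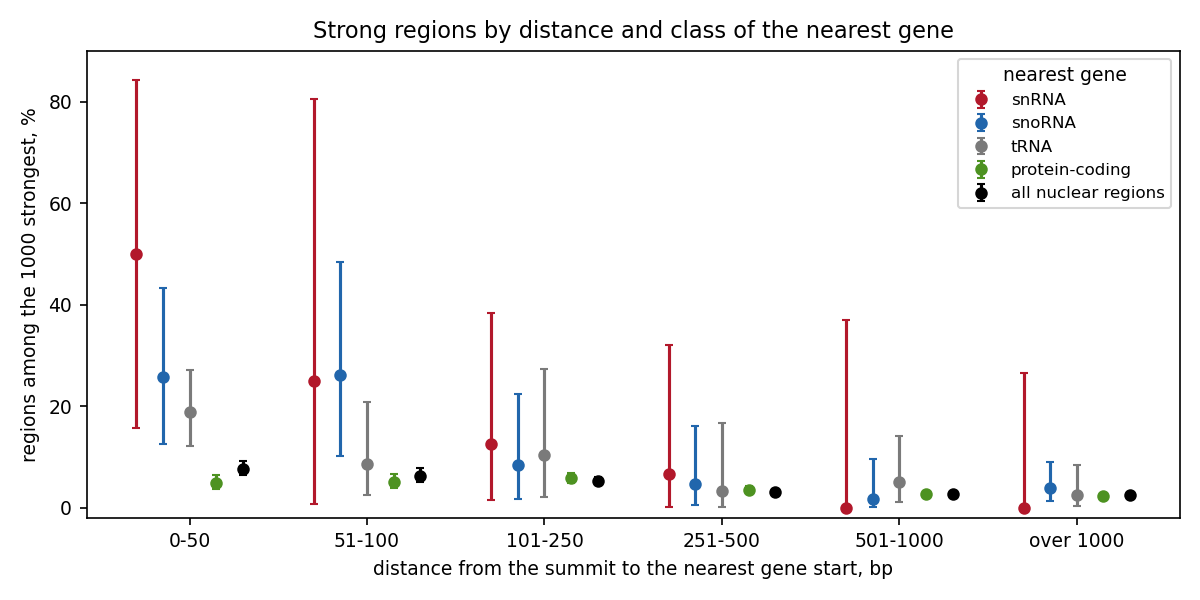
Share of regions among the 1000 strongest nuclear regions, in percent, by distance from the summit to the nearest start in bp, for regions nearest snRNA, snoRNA, tRNA and protein-coding genes and for all nuclear regions. Points are shares and bars are exact 95% intervals over regions; the snRNA and snoRNA shares are 4 of 8 and 9 of 35 regions within 50 bp, and 1 of 15 and 2 of 42 regions in the bin that ends at 500 bp.

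The strong summits close to a start lay mostly before it: 4 of the 5 snRNA summits and 10 of the 15 snoRNA summits were upstream, with medians of 16 bp and 31 bp before the start. Over all members within 100 bp, 8 of 12 snRNA and 34 of 58 snoRNA summits were upstream. Their medians were 14 bp and 19 bp before the start, so this side was not particular to the strong regions. Of the 26 strong snoRNA-nearest regions, 17 had no protein-coding start within 500 bp, against 288 of all 319 snoRNA-nearest regions. Of the 8 strong snRNA-nearest regions 5 had none, against 55 of all 63. A protein-coding start that close was thus more common among the strong members than among all members, but strong members also lay closer to their assigned start. A member more than 500 bp from its assigned start cannot have a protein-coding start within 500 bp. Among members within 100 bp, 6 of 15 strong and 19 of all 58 snoRNA-nearest regions had one. For snRNA-nearest regions within 100 bp the counts were 1 of 5 and 3 of 12. Leaving out regions with a protein-coding start within 500 bp, the strong share within 100 bp was 4 of 9 for snRNA genes (44.4%) and 9 of 39 for snoRNA genes (23.1%), against 9.32% over all nuclear regions treated alike. B0348.8, a snoRNA gene inside egl-8, had the most regions of any snoRNA gene, 9, with pooled signals of 6.20 to 10.9 and ranks of 5567 to 23075, and Y23H5B.10 had the most distant region, 9162 bp away with a signal of 5.92.

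A protein-coding gene enclosed the assigned snoRNA gene for 183 of the 319 regions, on the same strand for 160 and on the opposite strand for 23, and the snoRNA lay in an intron for 143. Strong regions were 13 of the 183 with a host (7.10%, 3.84 to 11.8) and 13 of the 136 without one (9.56%, 5.19 to 15.8), shares whose intervals overlapped. Among hosted regions they were 6 of 23 on the opposite strand (26.1%, 10.2 to 48.4) and 7 of 160 on the same strand (4.38%, 1.78 to 8.81). The median distance to the snoRNA start was 342 bp on the opposite strand and 835.5 bp on the same strand. Strand and distance therefore cannot be told apart here. The opposite-strand snoRNA genes with strong regions included T03F7.8 in cutl-18, C04G6.12 in mpk-2, which encodes a MAP kinase, and C07A9.14 in the sodium-calcium exchanger gene ncx-7. They also included C27H5.9 in pdl-1 and K02C4.7 in ltd-1, whose summits were 329 bp and 368 bp from the host start. In T24H10.12, inside jun-1, the summit was 1259 bp from the snoRNA start. The summit lay within 500 bp of the host start in 15 of the 183 hosted regions and in 3 of the 13 strong ones. Members were kept only where the assigned start was nearer to the summit than the host start. These counts therefore cannot show how often regions lie at the promoter of a host. For snRNA genes a host was present for 40 of 63 regions, with 3 strong regions among them (7.50%, 1.57 to 20.4) and 5 among the 23 without one (21.7%, 7.46 to 43.7), and none of the 3 was within 500 bp of the host start.

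Strong regions at 2 hosts with known roles in larvae lay far from their snoRNA. The region assigned to T25C12.11, in lin-14, a gene of developmental timing, had ranks of 156 in the pooled list, 281 in replicate 1 and 364 in replicate 2, with the summit 1873 bp before the snoRNA start. The region assigned to F26D10.24, in the Hsp70 gene hsp-1, had rank 873 in the pooled list, 771 in replicate 1 and no region in replicate 2, with the summit 1164 bp after the snoRNA start and 2251 bp from the hsp-1 start. Neither was an optimal peak.

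The letters before the starts divided the snoRNA genes. Among the distinct windows of 100 bases before the snRNA genes, AACCCG was the hexamer found in most (35.3%), followed by TGTCGG (34.5%). On the sense strand, AACCCG or TGTCNG stood in the 100 bp before 77.5% of snRNA genes, 18.2% of snoRNA genes and 5.93% of protein-coding genes, and both together before 17.1%, 6.65% and 0.0350%. In snRNA genes AACCCG began at a median of 58 bp before the start (quartiles 57 and 59) and TGTCNG at 47 bp (46 and 48), and in snoRNA genes the medians were 59 bp (58 and 61) and 49 bp, the latter with wider quartiles of 47 and 60. TGGCNNA and GTTCNANNC both stood before 18 of 346 snoRNA genes (5.20%), no snRNA gene and 0.0801% of protein-coding genes, with GTTCNANNC a median of 14 bp before the snoRNA start. These classes of letters were chosen after the data had been seen, and a match is a description of sequence, not of a factor bound.

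Strong regions were spread unequally over these classes of snoRNA gene. Each gene was put in 1 class, taken in the order both AACCCG and TGTCNG, then TGGCNNA with GTTCNANNC, then GTTCNANNC without TGGCNNA, then AACCCG or TGTCNG, then none. Of the 23 genes with both AACCCG and TGTCNG, 14 had a pooled region within 250 bp (60.9%, 38.5 to 80.3) and 6 had one among the 1000 strongest (26.1%, 10.2 to 48.4), namely ZK994.7, Y53F4B.47, F59C6.15, C07A9.14, smy-2 and F47G4.9. Of the 18 genes with TGGCNNA and GTTCNANNC, 13 had a pooled region (72.2%, 46.5 to 90.3) and 6 a strong one (33.3%, 13.3 to 59.0), namely T03F7.8, T08B2.13, C04G6.12, F32E10.10, C41C4.11 and Y39G10AR.24. Of the 35 genes left with AACCCG or TGTCNG but not both, 13 had a pooled region and 4 a strong one, and of the 15 with GTTCNANNC but not TGGCNNA 8 and 1 did; C51F7.4 and C51F7.3, which share a region, are in these classes. A further 5 genes with AACCCG or TGTCNG but not both, C04G6.12 among them, had been placed by GTTCNANNC. Of the 255 genes without AACCCG or TGTCNG and without GTTCNANNC, 65 had a pooled region (25.5%, 20.3 to 31.3) and 5 a strong one (1.96%, 0.640 to 4.52), close to the 21.5% and 1.67% of all genes. Among snRNA genes the classes differed less: 3 of 22 genes with both AACCCG and TGTCNG, 6 of 77 with 1 of them and 1 of 29 with none had a strong region, and the intervals overlapped; 1 more snRNA gene was placed by GTTCNANNC and had none.

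The replicates differed between these classes. In the list of replicate 1 alone, 6 of the 18 genes with TGGCNNA and GTTCNANNC had a region among its 1000 strongest, and in that of replicate 2 alone 1 of the 18 did (5.56%, 0.141 to 27.3). For example, the region of Y39G10AR.24 had a signal of 21.1 in the pooled list (rank 319), 19.1 in replicate 1 (rank 237) and 2.14 in replicate 2 (rank 17921), and that of F32E10.10 had 21.7 (rank 286), 19.0 (rank 247) and 2.85 (rank 11904). For genes with both AACCCG and TGTCNG the counts were 4 of 23 in replicate 1 and 5 of 23 in replicate 2. The smy-2 region, of this class, went the other way, with 22.3 in the pooled list (rank 254), 8.41 in replicate 1 (rank 7498) and 11.3 in replicate 2 (rank 78). The share with tRNA-type letters thus rests on replicate 1, and the cause was not tested.

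**Figure D3:**
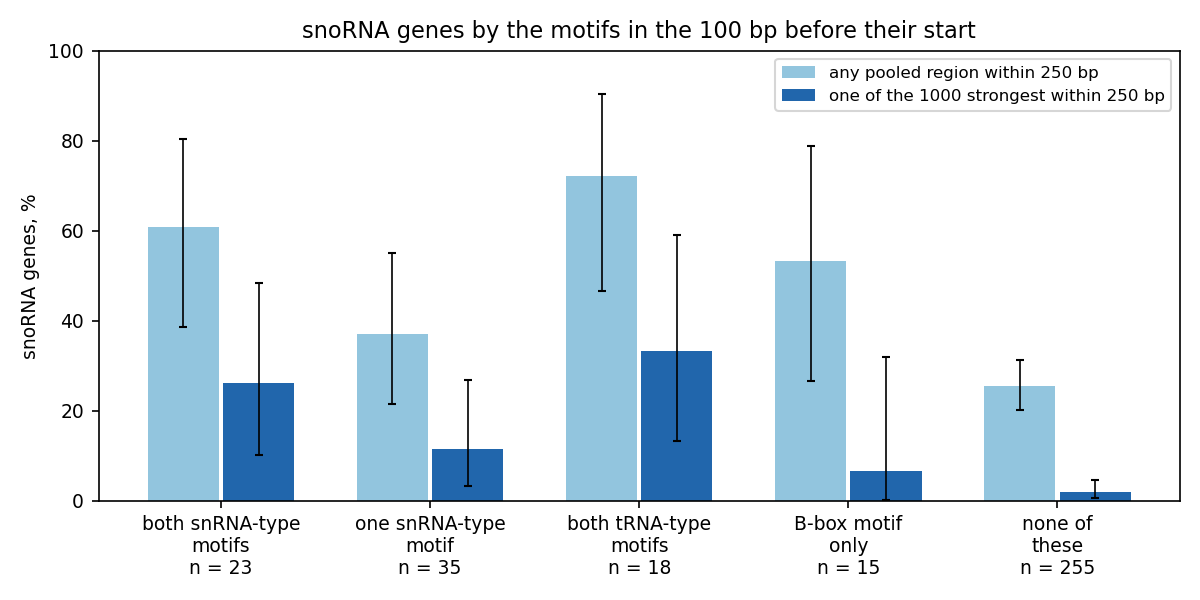
Share of snoRNA genes, in percent, with any pooled region (light bars) and with one of the 1000 strongest (dark bars) within 250 bp of a start, by the motifs in the 100 bp before the start. The snRNA-type motifs are AACCCG and TGTCNG, the tRNA-type motifs TGGCNNA and GTTCNANNC, the B-box motif GTTCNANNC; error bars are exact 95% intervals over genes, and the dark bars are highest, at 33.3% and 26.1%, for the genes with both tRNA-type or both snRNA-type motifs.

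Over all members, 17 of 63 snRNA-nearest regions (27.0%, 16.6 to 39.7) and 63 of 319 snoRNA-nearest regions (19.7%, 15.5 to 24.5) overlapped a region in both replicates, where all nuclear regions gave 13.5%. The replicate 1 list held 29969 nuclear regions and that of replicate 2 only 19359, and 69.8% of snRNA-nearest and 67.4% of snoRNA-nearest regions were found in the first, 41.3% and 36.1% in the second, against 66.7% and 27.0% of all nuclear regions. All 34 strong members had a region in replicate 1, and 7 of the 8 snRNA-nearest and 20 of the 26 snoRNA-nearest ones had a region in replicate 2. Those among the 1000 strongest of both replicates were 2 snRNA-nearest regions, W05B2.8 and sup-6, and 5 snoRNA-nearest ones. Of the latter, ZK994.7 and Y53F4B.47 had the summit 31 and 89 bp from the snoRNA start. T27A8.8, ZK20.9 and T25C12.11 had it 765, 2378 and 1873 bp away. The 1000 strongest of replicate 1 held 5 of the 8 strong snRNA-nearest and 20 of the 26 strong snoRNA-nearest regions, and those of replicate 2 held 3 and 10. The same shares were not taken over all 1000 strongest nuclear regions, and the pooled list was called on both replicates together. These counts therefore do not set the strong members apart from other strong regions. Assigned anew in each list, snRNA-nearest regions numbered 62 in replicate 1 and 44 in replicate 2, and snoRNA-nearest regions 298 and 222.

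**Figure D4:**
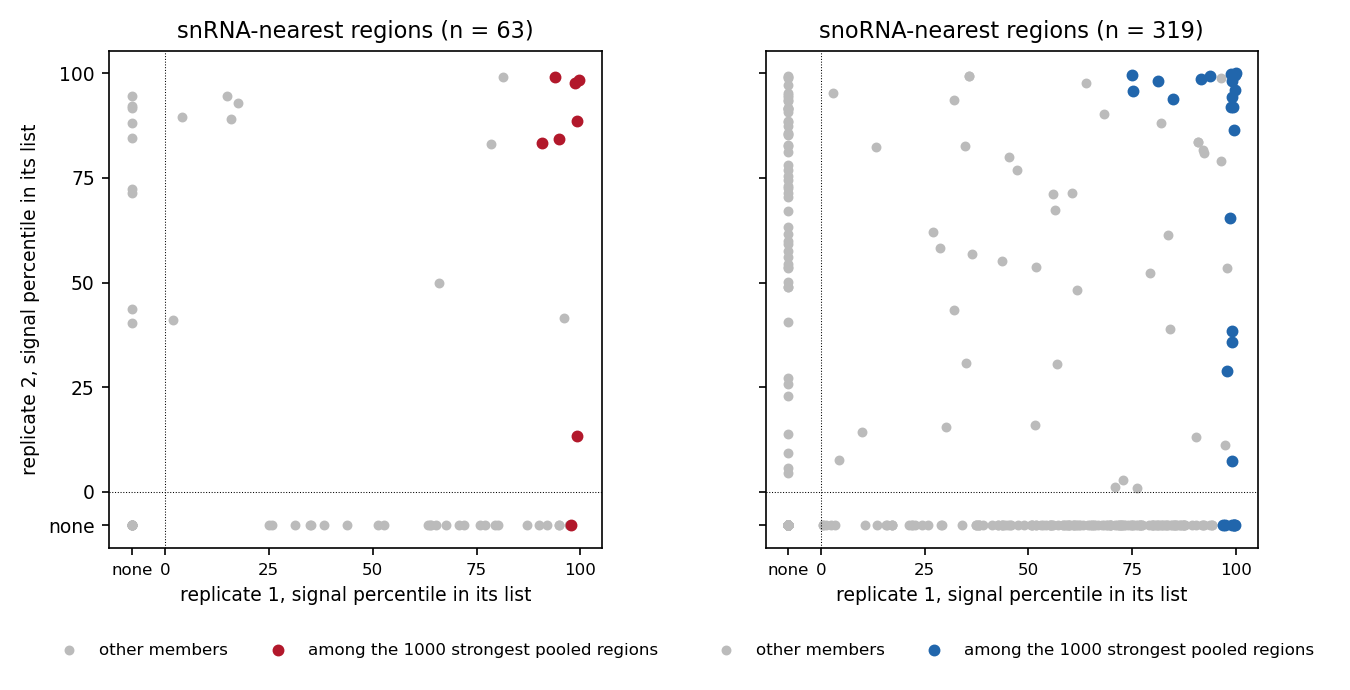
Signal percentile of each member in the list of replicate 1 and in that of replicate 2, for the 63 snRNA-nearest and 319 snoRNA-nearest regions. Each point is 1 region, those marked none had no overlapping region in that list, and the coloured points are the 8 and 26 members among the 1000 strongest pooled regions, all of which have a value in replicate 1.

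The genes for the proteins of these particles were also examined, from a list of 25 genes of Sm proteins, U1 and U2 proteins, SNAPc, snRNP assembly factors and snoRNP proteins, of which 23 were found by name. A pooled region lay within 500 bp of a start for 11 of the 23, against 36.5% of all protein-coding genes, and an optimal peak for 0 of the 23, against 0.436%. The strongest were at snr-4, which encodes an Sm protein, at rank 590 and shared with C52E4.8, and at rnp-2, a U1 or U2 protein gene, at rank 688. snr-6 followed at rank 1092, and the best region at fib-1, the gene of the box C/D methyltransferase fibrillarin, had rank 20992. Of the SNAPc genes found, snpc-1.2 and snpc-1.3 had a region, at ranks 8158 and 4053, and snpc-4 had none.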

How the data were processed

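ChIP-seq was measured in 2 biological replicates of 1 group, per the labels. The authors deposited region lists for each replicate, for both together (pooled) and of peaks passing their reproducibility threshold (optimal), in which they give for each region a signal value (ChIP over control) and a −log10 q; per the deposited text records, 1 control, not analysed here, served both replicates. The sources used here do not name the aligner or peak caller. Lists hold no read counts, so depth is unknown. Where nothing else is named, values come from the ce11 pooled list; ce10 lists were not used.

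Summits were assigned to the nearest transcript start in Ensembl release 115 (WBcel235) without piRNA genes, in Python 3.11.15 with pandas 2.3.3, numpy 2.4.6, scipy 1.17.1 and matplotlib 3.10.9. Regions of different lists were matched at an overlap of at least 1 bp. Locus names of 475 of 475 snRNA and snoRNA genes came from RefSeq, matched by gene ID, and replaced Ensembl names shared by several genes. Sequences came from the RefSeq copy of WBcel235. The assignment and overlap code was checked on simulated data with known answers.

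Named were members at an optimal peak, the 8 strongest members of each type, the gene of each type with most regions and the most distant member; others were named after their values were seen. The members and lists were chosen with earlier results of these data known. Alternatives were other distances, assignment rules, overlaps and list sizes, piRNA genes included, the −log10 q in place of the signal, and each replicate's list alone.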

Additional observations from a re-analysis of the deposited data

How the results depend on the processing

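Of 70 recomputed values, 52 stayed within the spread set for them (the exact 95% interval of a share, 1.5 times for a count, 1 SD of the replicates' own medians for a percentile), 18 moved and 0 reversed; 20 of the 70 alternatives were chosen after seeing the data. Assigning by the nearest gene span in place of the start left 17 snRNA-nearest and 113 snoRNA-nearest regions, since a summit inside a gene then goes to that gene, and a limit of 1000 bp left 192 snoRNA-nearest regions. The median percentile rose to 69.0 (snRNA) and 65.2 (snoRNA) with the strongest region of each gene, and for snoRNA to 61.0 within 1000 bp, to 57.2 with piRNA genes included and to between 58.4 and 61.4 in the replicates alone. The share near the start was 44.4% (snRNA) and 29.5% (snoRNA) within 250 bp and 81.0% and 60.2% within 1000 bp, where all nuclear regions gave 20.4% and 55.3%. The share of snoRNA-nearest regions in both replicates was 14.1% under the stricter overlap rule, against 9.16% of all, and 26.6% within 1000 bp. With the 108 strongest nuclear regions of each replicate in place of the optimal list, the snRNA share was 0% (0 of 44, replicate 2) to 1.61% (1 of 62, replicate 1), against 0.558% and 0.360% of all nuclear regions. Strong regions of single replicates stood at 5.56% to 33.3% of snoRNA genes with TGGCNNA and GTTCNANNC and at 0.392% to 3.14% of those with none of the letters; the causes were not tested. The shares of strong regions within 100 bp stayed within their intervals at 500 and 2000 strongest regions, within 50 and 250 bp and in each replicate alone (3 of 15 and 3 of 7 regions for snRNA, 12 of 56 and 11 of 45 for snoRNA). No paired analysis was possible because there is 1 group and no second group to pair with. Depth is unknown, and 12 snRNA-nearest regions within 100 bp leave a wide interval.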

Other observations

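The bases around the strong summits were richer in G and C than around summits in general. Over the 50 bases on each side of the summit the GC content was 44.4% ± 7.07 (SD over 8 regions) for the strong snRNA-nearest regions and 44.2% ± 10.8 (SD over 26 regions) for the strong snoRNA-nearest regions, against 38.6% for the 1000 strongest nuclear regions and 35.2% for all nuclear regions. CGCGCA, searched on both strands, stood within 50 bp of the summit in 6 of the 26 strong snoRNA-nearest regions (23.1%, 8.97 to 43.6), in 80 of the 1000 strongest and in 1.87% of all nuclear regions. Base composition and these letters move together, and their part in the signal was not tested.

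The letters TGATGA (box C) in the first 15 bases and CTGA (box D) in the last 15 bases stood together in 13 of 346 annotated snoRNA genes. Taken singly, TGATGA stood there in 17 genes and CTGA in 77. This exact search is crude and does not sort the genes into box classes. A pooled region lay within 250 bp of a start for 9 of these 13 (69.2%, 38.6 to 90.9) and for 104 of the other 333 (31.2%, 26.3 to 36.5), and a region among the 1000 strongest for 3 (23.1%, 5.04 to 53.8) and 19 (5.71%, 3.47 to 8.77).

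By chromosome, X held 2 of the 63 snRNA-nearest regions (3.17%) and 21 of the 319 snoRNA-nearest regions (6.58%), against 17.6% of all nuclear regions. These shares depend on where such genes are annotated, and the share of the genes themselves on X was not taken. On chromosome II, 9 of the 66 snoRNA-nearest regions were among the 1000 strongest, the optimal peaks at Y53F4B.47 and ZK20.9 included. The share was 3.27% over all nuclear regions there and 8.15% over all snoRNA-nearest regions. The count of 9 was the highest of any chromosome, and whether chromosomes differ was not tested. The others had 4 of 71 (I), 2 of 61 (III), 4 of 48 (IV), 5 of 52 (V) and 2 of 21 (X). Strong regions near 4 snoRNA starts were counted under other genes: that of rank 19, an optimal peak 225 bp from F54E7.10, under the ribosomal protein gene rps-12, that of rank 181 near T08B2.13 under the pseudogene T08B2.t1, that of rank 805 near C18A3.12 under C18A3.14, and that of rank 99 near C51F7.4 under C51F7.3.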
